A study of Mus musculus with 5 samples.

Results

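Rbm33 is the gene on the left of Shh on mouse chromosome 5, and a domain border lies between them. Contacts of Rbm33 were read from capture Hi-C maps of limb buds from E10.5 mouse embryos. In this assay, pairs of DNA fragments that were ligated in fixed chromatin are enriched for 1 stretch of the genome and sequenced. Rbm33 (28,316,836 to 28,419,244, GRCm38, forward strand) covered 21 of the 558 bins of 5 kb in the captured region (27,480,001 to 30,270,000). The viewpoint was therefore 28,315,001 to 28,420,000, split into a left segment of 11 bins and a right segment of 10 bins. Its partners were all bins 20 kb or more away, left or right of the border at 28,445,001. The right end of Rbm33 lay 25.8 kb from this border, 37.6 kb from Shh and 810.6 kb from Lmbr1.

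The 5 mutant genotypes were all homozygous, and each had 1 library. The genotypes intraTAD2, intraTAD3 and intraTAD2-i4CTCF came from mated mice. The genotypes intraTAD2-2xBorCTCF and intraTAD2-1xBorCTCF were made by tetraploid aggregation, a method that combines embryonic stem cells with a tetraploid host embryo. The last 3 genotypes also carry the intraTAD2 allele by name and are called i4CTCF, 2xBorCTCF and 1xBorCTCF below. The sources used here do not state the DNA change behind each name. The comparison map is the authors' wild-type map, which belongs to no sample and is used here as their value. In each comparison with it the genotype and the origin of the library cannot be told apart, and in both BorCTCF maps the genotype and tetraploid aggregation cannot be told apart. All 5 comparisons with wild type share that map, and the 4 with intraTAD2 share the intraTAD2 map.

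Rbm33 encodes an RNA-binding protein known to bind RNA that carries the m6A mark and to act with the demethylase ALKBH5. Shh codes for a secreted protein that patterns the limb from front to back, and its limb enhancer, the ZRS, lies in an intron of Lmbr1 at the far end of a gene desert. Domains of this kind are held by cohesin and by the DNA-binding protein CTCF, and contacts across their borders are rarer than contacts within them. Rbm33 lies outside the Shh domain, so its contacts to the right have to cross the border.

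Contacts are given as distance-normalised contact, the balanced value over the average of the pairs of bins that lie equally far apart in that map, so that 1 is average. The intervals in brackets are 95% intervals of counting error only. With 1 library per genotype there is no spread between embryos and no test, and a difference is called outside counting error where its interval leaves 0. The whole captured region held 1,121,373 (2xBorCTCF) to 2,942,790 (intraTAD2) contacts. Rbm33 held 44,738 (2xBorCTCF) to 127,783 (intraTAD2) of them at 20 kb or more, and no Rbm33 bin was left out. Insulation at the border, the log2 contact across it within 100 kb relative to the region, was -0.78 in 2xBorCTCF and -0.98 in 1xBorCTCF, and -1.05 (i4CTCF) to -1.13 (intraTAD2) in the other 4 maps.

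The start of Rbm33 lies at the end of the gene that is farther from the border, next to Cnpy1, and its last bins point towards Shh. The sequence before the start is shown because it marks this end of the viewpoint. It is the 250 bases upstream of the RefSeq start at 28,317,189 (GRCm38.p6, chr5:28316939-28317188, forward strand), with its 34 CG dinucleotides in capitals. The annotated gene begins before this start, at 28,316,836, so these bases lie inside the annotated gene.
Rbm33: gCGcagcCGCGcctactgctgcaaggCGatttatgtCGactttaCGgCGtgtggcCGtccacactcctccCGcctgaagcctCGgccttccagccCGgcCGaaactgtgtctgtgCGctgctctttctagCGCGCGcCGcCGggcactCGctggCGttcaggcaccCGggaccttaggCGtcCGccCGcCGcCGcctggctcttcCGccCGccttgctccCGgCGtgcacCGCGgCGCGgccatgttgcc
The window of 300 bases that includes 50 bases after the start held 41 CG dinucleotides, and 3.46% of 32,851 RefSeq promoters held as many, against a median of 7. The core of the CTCF motif had no match on either strand of this window, whereas 8.61% of all promoters of this length held one. Among the 13 listed genes, 11 had a promoter in the table, and Nom1 and Dnajb6 held 1 match each. For Dnajb6 it lay in the promoter window that begins at 29,735,648, and the window that begins at 29,735,729 held none. The first 252 bases of the annotated gene, which include part of the sequence shown, also overlap the long non-coding RNA Gm35602. The first bin of Rbm33 thus covers both.

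Across the border, Rbm33 made fewer contacts than average nearby and more than average far away. Between 20 and 100 kb its contact with the left side was 0.834 in wild type and its contact with the right side 0.449. In the mutant maps the left values were 0.842 (intraTAD2), 0.831 (intraTAD3), 0.865 (i4CTCF), 0.887 (2xBorCTCF) and 0.835 (1xBorCTCF). The right values were 0.460, 0.493, 0.463, 0.556 and 0.490 in the same order. In each of the 6 maps the right side was lower, by 0.67 (2xBorCTCF) to 0.90 (i4CTCF) on the log2 scale, with all intervals off 0.

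From 100 to 300 kb, where the partners on the right are the gene desert and, for the bins of Rbm33 farthest from the border, Shh, the contact was 0.872 to the left and 0.474 to the right in wild type. Right-side contact there was 0.479 (intraTAD2), 0.482 (intraTAD3), 0.498 (i4CTCF), 0.539 (2xBorCTCF) and 0.528 (1xBorCTCF). Left-side contact stayed between 0.871 and 0.914 in the mutant maps. From 300 to 600 kb the left side was above average, at 1.10 in wild type and up to 1.15 in 1xBorCTCF, and the right side was at 0.659 in wild type. The right side at this distance was 0.695, 0.724, 0.718, 0.744 and 0.737 in intraTAD2, intraTAD3, i4CTCF, 2xBorCTCF and 1xBorCTCF. With unbalanced contacts the difference between the sides at 300 to 600 kb was smaller, from -0.13 (intraTAD2) to -0.12 (wild type) in 3 maps, and turned sign in intraTAD3, 2xBorCTCF and 1xBorCTCF, where the right side was higher by 0.030, 0.051 and 0.0015 on the log2 scale.

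Beyond 600 kb the order was turned. Right-side contact was 1.51 (wild type), 1.56 (intraTAD2), 1.57 (intraTAD3), 1.47 (i4CTCF), 1.42 (2xBorCTCF) and 1.41 (1xBorCTCF), against 0.862 (wild type) to 0.923 (1xBorCTCF) on the left in 5 maps and close to 1 but still below it in 2xBorCTCF. The left side ends 835 kb from Rbm33 and the right side reaches 1851 kb. Over the distances both can give, 600 to 835 kb, the right side was still higher in all 6 maps, by 0.34 (0.27 to 0.42) in wild type and by 0.21 (2xBorCTCF) to 0.51 (intraTAD3) in the mutant maps on the log2 scale. The mean over all distances depends on the reach and on the weights. Over all partners the right side was 0.40 higher on the log2 scale in wild type and 0.26 (2xBorCTCF) to 0.44 (intraTAD3) higher in the mutant maps. As a ratio of summed contacts the difference was only 0.049 in wild type and -0.025 (2xBorCTCF) to 0.083 (intraTAD3) in the mutant maps, and with a median curve it was 0.024 in 2xBorCTCF. Over distances up to 835 kb it was lower in all 6 maps, by values from -0.33 (wild type) to -0.20 (intraTAD3).

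**Figure D1:**
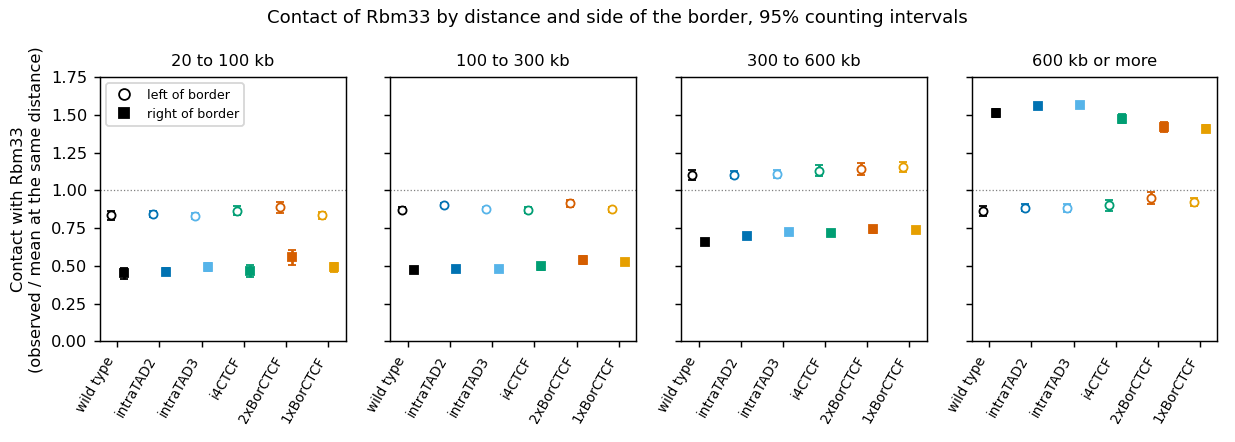
Distance-normalised contact of Rbm33 (y axis, observed over the mean at the same distance) in each of 6 maps (x axis), for partners left (open circles) and right (filled squares) of the border in 4 bands of distance. Bars are 95% counting intervals; the right side is at 0.449 to 0.556 in the first band and at 1.41 to 1.57 in the last.

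In shares of balanced contacts over the full reach the sides were nearly even. The right side took 51.9% (51.5% to 52.2%) of the contacts of Rbm33 at 20 kb or more in wild type and 49.7% (2xBorCTCF) to 51.0% (intraTAD3) in the mutant maps. Over distances up to 835 kb its share was 34.4% (wild type) to 35.5% (intraTAD3), and under the other alternatives it was 49.0% to 54.5%. The domain from the border to the second border inside Lmbr1 (29,355,001), called the Shh domain here, took 31.8% in wild type and 33.0% (intraTAD2) to 33.8% (intraTAD3) in the mutant maps. The stretch beyond it took 19.7% to 20.3% (counting interval) in wild type and 16.1% (2xBorCTCF) to 17.8% (1xBorCTCF) in the mutant maps. All 5 mutant maps thus had a higher share in the Shh domain and a lower share beyond it than wild type, outside the Clopper-Pearson counting intervals. These shares are not distance-normalised, so they also hold the distance curve of each map. Distance-normalised contact beyond the domain was 1.45 in wild type, 1.46 in intraTAD2 and 1.45 in intraTAD3. It was 1.34 in i4CTCF and 1.33 in both BorCTCF maps. Within the Shh domain it was 1.03 in wild type and 1.05 (1xBorCTCF) to 1.14 (intraTAD3) in the mutant maps.

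The profile in windows of 50 kb was highest over Paxip1 on the left and over Lmbr1 on the right, with a lower second rise over Ube3c. On the left the 3 highest windows, by their mean over the 6 maps, lay over Paxip1 (1.92 and 1.65) and Htr5a (1.20). The 3 lowest on the left lay at the end of the region over Dpp6, with 0.529, 0.531 and 0.625. On the right the 3 highest windows lay over Lmbr1, with 3.08 at 29,280,001, 2.99 at 29,330,001 and 2.25 at 29,230,001. Farther right the mean was 1.51 at 29,480,001 and again 1.93 at 29,580,001, over Ube3c. The 3 lowest on the right were the desert windows nearest to Shh, from 28,480,001 to 28,630,000, with 0.454, 0.504 and 0.471 in order of position.

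**Figure D2:**
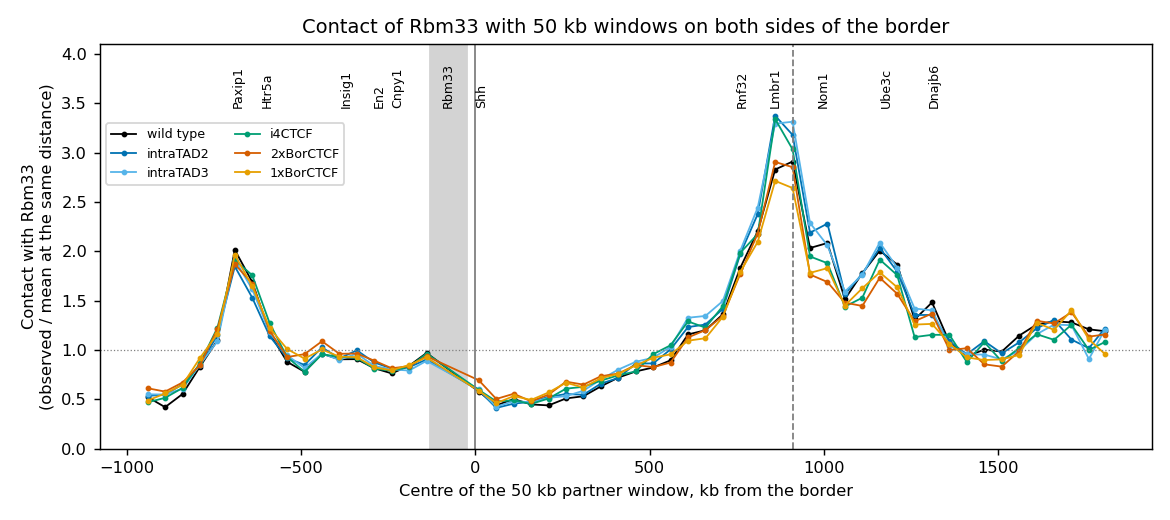
Distance-normalised contact of Rbm33 with each 50 kb window (y axis) against the position of the window centre in kb from the border (x axis), 1 line per map. The grey band is Rbm33, the solid line the border and the dashed line the border inside Lmbr1; the highest peak on the right lies over Lmbr1 at 2.64 to 3.37 in its 2 highest windows, and the peak on the left over Paxip1.

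Among the 5 listed genes on the left, contact was highest with the most distant of them. Paxip1, which encodes a BRCT-domain protein of the DNA damage response and of histone methyltransferase complexes, had a contact of 2.08 (2.00 to 2.16) in wild type. Its mutant values were 1.88, 1.95, 2.02, 1.93 and 2.00 in intraTAD2, intraTAD3, i4CTCF, 2xBorCTCF and 1xBorCTCF, so wild type was the highest. The serotonin receptor gene Htr5a was at 1.19 to 1.25 and Insig1, a regulator of sterol synthesis, at 1.01 to 1.12 over the 6 maps. The nearest genes were below average, the homeobox gene En2 at 0.733 to 0.836 and Cnpy1, a gene of the canopy family linked to FGF signalling, at 0.788 to 0.812.

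Within the Shh domain the contact of Rbm33 increased with distance. Shh itself, across the border, was at 0.468 to 0.532, so the gene nearest to Rbm33 on the right had the lowest contact of all 12 listed genes in each map. Rnf32, a RING finger gene beside Lmbr1, was at 1.85 in wild type and 1.80 (1xBorCTCF) to 2.01 (intraTAD3) in the mutant maps. Lmbr1 was at 2.56 (wild type), 2.85 (intraTAD2), 2.92 (intraTAD3), 2.74 (i4CTCF), 2.55 (2xBorCTCF) and 2.40 (1xBorCTCF). The windows of Rnf32 and Lmbr1 share bins. Lmbr1 was the highest partner in all 6 maps.

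Beyond the Shh domain, contact was again above average. Nom1, a gene for a nucleolar protein, was at 2.34 in wild type and at 2.47, 2.32, 2.16, 1.81 and 2.04 in intraTAD2, intraTAD3, i4CTCF, 2xBorCTCF and 1xBorCTCF. The motor neuron homeobox gene Mnx1 was at 1.36 (i4CTCF) to 1.77 (intraTAD2) over the 6 maps. The ubiquitin ligase gene Ube3c was at 1.91 (wild type), 1.90 (intraTAD2), 1.93 (intraTAD3), 1.78 (i4CTCF), 1.63 (2xBorCTCF) and 1.69 (1xBorCTCF). The co-chaperone gene Dnajb6 was at 1.42 in wild type and lower in each mutant map, at 1.13 (i4CTCF) to 1.31 (intraTAD3). Its difference from wild type was within counting error in intraTAD3 and 2xBorCTCF, and all these differences share the wild-type value.

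Over all distances, contact of Rbm33 with the right side was 1.24 in wild type and higher in intraTAD2 (by 0.047, 0.020 to 0.074, on the log2 scale) and in intraTAD3 (by 0.059, 0.032 to 0.086). In i4CTCF the ratio was -0.017 (-0.050 to 0.017), within counting error, but -0.16 with a median curve, -0.25 with a common curve and 0.12 up to 835 kb, all outside it. In 2xBorCTCF (-0.050, -0.085 to -0.015) and 1xBorCTCF (-0.063, -0.092 to -0.034) it was lower. Left-side contact was 0.946 in wild type and higher in both BorCTCF maps, by 0.084 (0.045 to 0.12) and 0.059 (0.025 to 0.092), with the other 3 ratios within counting error. With unbalanced contacts these 2 ratios were -0.0049 and -0.0095. The right-minus-left difference was therefore lower in the 2 BorCTCF maps, by -0.13 (-0.19 to -0.081) and -0.12 (-0.17 to -0.077), and by -0.16 and -0.14 when set against intraTAD2. In i4CTCF it was lower as well, by -0.054 (-0.10 to -0.0039) against wild type and -0.077 (-0.12 to -0.033) against intraTAD2, and this turned to 0.081 and 0.020 over distances up to 835 kb. The sign of the right-side ratios depended on the distance curve and on the reach. With 1 curve common to both maps the ratios of intraTAD2 and intraTAD3 to wild type were -0.093 and -0.17, and over distances up to 835 kb those of 2xBorCTCF and 1xBorCTCF were 0.082 and 0.078. The right-minus-left difference of these maps then differed from wild type by 0.0099 and 0.021.

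In intraTAD2, Rbm33 had more contact with the Shh domain than in wild type (1.11 against 1.03, log2 ratio 0.11, 0.077 to 0.14) and no difference outside counting error beyond it (0.0028, -0.036 to 0.042). Lmbr1 (0.15, 0.10 to 0.21), Mnx1 (0.24, 0.049 to 0.42) and En2 (0.13, 0.020 to 0.25) were higher. Paxip1 (-0.14, -0.22 to -0.072) and Dnajb6 were lower. Of the 12 listed genes 3 were thus higher and 2 lower, 41.7%, with a median log2 ratio of 0.019. Over all viewpoints of the same width 25.8% of gene windows left 0. None of the 54 windows of 50 kb differed by 1.3-fold or more, against 1.65% over all viewpoints.

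In intraTAD3 the Shh domain was higher than in wild type by 0.15 (0.12 to 0.18), from 1.03 to 1.14. Lmbr1 (0.19, 0.13 to 0.24) and Rnf32 (0.12, 0.027 to 0.21) were higher and Paxip1 (-0.093, -0.17 to -0.019) lower, 3 of 12 genes in all, where 27.1% of gene windows over all viewpoints left 0. With 1 distance curve common to both maps the Lmbr1 and Rnf32 ratios were -0.0024 and -0.0051. Of the 54 windows 1 was 1.3-fold higher and 1 lower, against 1.79% over all viewpoints. Set against intraTAD2, intraTAD3 differed for 1 gene, Mnx1 (1.52 against 1.77, -0.22, -0.39 to -0.053), where 12.1% of gene windows did. No window passed 1.3-fold between these 2 maps, against 0.716% over all viewpoints.

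In i4CTCF the Shh domain was higher than in wild type by 0.11 (0.074 to 0.15) and the stretch beyond it lower by -0.11 (-0.16 to -0.063). The beyond-domain contact was 1.34 in i4CTCF and 1.45 in wild type. Lmbr1 was higher (0.096, 0.029 to 0.16), and Ube3c (-0.10) and Dnajb6 (-0.33, -0.50 to -0.15) were lower, 3 of 12 genes where 19.0% of gene windows left 0. With a common curve the Lmbr1 ratio turned to -0.12 and the Shh-domain ratio to -0.074. No window passed 1.3-fold, against 3.58%. Against intraTAD2, the map that shares its first allele, all 4 genes beyond the domain were lower, by values from -0.38 (Mnx1) to -0.091 (Ube3c). Paxip1 was higher by 0.098, which turned to -0.066 with a common curve. These were 5 of 12 genes where 21.2% of gene windows left 0, and no window passed 1.3-fold, against 2.43%.

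Both BorCTCF maps had more contact of Rbm33 with the near part of the Shh domain and less with the far right than wild type. In 2xBorCTCF the right side was higher by 0.31 (0.14 to 0.48) at 20 to 100 kb, by 0.19 (0.090 to 0.28) at 100 to 300 kb and by 0.17 (0.12 to 0.23) at 300 to 600 kb. Beyond 600 kb it was lower, by -0.089 (-0.13 to -0.049). In 1xBorCTCF the values were 0.13 (-0.019 to 0.27), 0.16 (0.078 to 0.24), 0.16 (0.11 to 0.21) and -0.10 (-0.13 to -0.067) in the same order of distance. At 300 to 600 kb, intraTAD2 (0.078, 0.030 to 0.13), intraTAD3 (0.14, 0.088 to 0.19) and i4CTCF (0.12, 0.064 to 0.18) were also higher than wild type. The intraTAD2 value turned to -0.011 with unbalanced contacts and the i4CTCF value to -0.062 with a common curve. Insulation at the border was weakest in the 2 BorCTCF maps, as given above. Its window of 100 kb left of the border holds bins of Rbm33 itself. It thus counts part of the same pairs and is not a separate observation. The 100 to 300 kb values stayed above 0 in all 6 alternatives tried, at 0.12 to 0.21 in 2xBorCTCF and 0.11 to 0.17 in 1xBorCTCF.

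Among the genes beyond the domain, Nom1 (-0.37, -0.52 to -0.22) and Ube3c (-0.23, -0.33 to -0.13) were lower in 2xBorCTCF than in wild type. In 1xBorCTCF, Nom1 (-0.20, -0.32 to -0.077), Ube3c (-0.18, -0.26 to -0.097) and Dnajb6 (-0.20, -0.34 to -0.060) were lower, and so was Lmbr1 (-0.092). In 2xBorCTCF, En2 was higher by 0.19, which was -0.0089 with unbalanced contacts, and Paxip1 lower by -0.11. In total 4 of 12 genes left 0 in 2xBorCTCF (1 higher, 3 lower), where 27.1% of all gene windows did, and 4 in 1xBorCTCF (all lower), where 23.5% did. In each map 2 windows of 50 kb were 1.3-fold higher and none lower, 3.70% of 54, against 7.09% over all viewpoints in 2xBorCTCF and 3.58% in 1xBorCTCF.

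Set against intraTAD2, the same direction held for Nom1, with -0.45 (-0.60 to -0.30) in 2xBorCTCF and -0.28 (-0.39 to -0.17) in 1xBorCTCF. Ube3c (-0.22 and -0.17), Lmbr1 (-0.16 and -0.25) and Rnf32 (-0.11 and -0.13) were also lower in both. Mnx1 was lower in 1xBorCTCF (-0.26). Shh was higher in 2xBorCTCF (0.15, 0.025 to 0.28), which was -0.0023 with unbalanced contacts, and Paxip1 higher in 1xBorCTCF (0.089), which was -0.038 with a median curve. This made 1 gene higher and 4 lower in 2xBorCTCF, where 26.5% of gene windows left 0, and 1 higher and 5 lower in 1xBorCTCF, where 28.1% did. Windows past 1.3-fold numbered 1 (lower) and 0, against 4.29% and 2.36% over all viewpoints.

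Between the 2 BorCTCF maps, contact over the whole right side differed by 0.013 (-0.021 to 0.047) on the log2 scale, within counting error. With a median curve it was -0.19 (-0.23 to -0.16) and with a common curve -0.091 (-0.12 to -0.057), so this comparison depends on the distance curve. Nom1 was lower in 2xBorCTCF than in 1xBorCTCF (-0.17, -0.33 to -0.015) and En2, Insig1 and Lmbr1 higher (0.15, 0.15 and 0.086), 4 of 12 genes where 18.0% of gene windows left 0. The Lmbr1 ratio was -0.12 with a median curve and the En2 ratio -0.0071 with unbalanced contacts. No window passed 1.3-fold, against 2.79%. At 20 to 100 kb right of Rbm33, 2xBorCTCF was higher by 0.18 (0.024 to 0.34), which turned to -0.10 with unbalanced contacts.

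**Figure D3:**
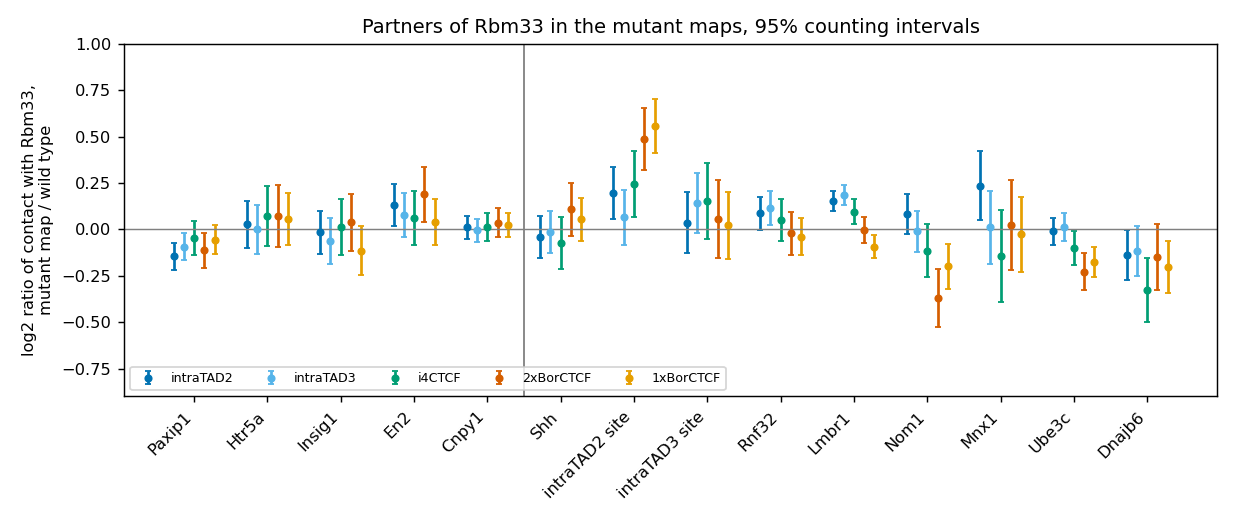
The log2 ratio of the contact of Rbm33 in each mutant map to wild type (y axis) for the listed genes and 2 sites in order of position (x axis), with 95% counting intervals. The vertical line is the border; the intraTAD2 site is highest in 1xBorCTCF (0.56) and 2xBorCTCF (0.49), and Nom1 lowest in 2xBorCTCF (-0.37).

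The largest differences from wild type among the listed partners were those of the 2 BorCTCF maps in 1 stretch of the gene desert. Other partners differed more in intraTAD2 (Mnx1), intraTAD3 (Lmbr1) and i4CTCF (Dnajb6). The stretch, 28,675,001 to 28,700,000, is read here as the intraTAD2 site. The labels do not give the positions of the sites, and these were taken over from earlier results of the same maps. Contact of Rbm33 with this window was 0.498 (0.458 to 0.539) in wild type, 0.571 (intraTAD2), 0.521 (intraTAD3), 0.591 (i4CTCF), 0.699 (2xBorCTCF) and 0.734 (0.690 to 0.778) in 1xBorCTCF. Each of these values was below the average of 1. The log2 ratios to wild type were 0.20 (0.056 to 0.34), 0.065 (-0.084 to 0.21), 0.25 (0.069 to 0.43), 0.49 (0.32 to 0.66) and 0.56 (0.41 to 0.70) in this order. Against intraTAD2, 2xBorCTCF was higher by 0.29 and 1xBorCTCF by 0.36, both outside counting error, and i4CTCF by 0.050, within it.

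Over the alternatives the ratio to wild type stayed at 0.42 to 0.54 in 2xBorCTCF and 0.53 to 0.81 in 1xBorCTCF. In i4CTCF it was down to 0.057 with a common curve. In single bins the difference was not confined to the bin of the site (28,685,001), where contact was 0.488 in wild type, 0.713 in 2xBorCTCF and 0.789 in 1xBorCTCF. The bin 10 kb to its right was at 0.542, 0.671 and 0.833 in the same maps. That bin of the site also held more contacts of any kind in some maps, at 201% of the mean bin in wild type, 378% (intraTAD2), 190% (intraTAD3), 242% (i4CTCF), 208% (2xBorCTCF) and 338% (1xBorCTCF). Balancing scales every bin to the same total, and the part of this difference in the result was not tested. The number of contacts of Rbm33 with the whole window was 579 (i4CTCF) to 1800 (intraTAD2).

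Other viewpoints also differed at this window. Of the 12 other listed genes as viewpoints, 4 had a ratio to wild type outside counting error in 2xBorCTCF and 6 in 1xBorCTCF, all of them above 0. Over all viewpoints, 27.1% and 23.5% of gene windows left 0 in these maps in either direction. The 4 of 12 in 2xBorCTCF lie near that share. From Shh its contact was 1.14 in wild type, 2.26 in 2xBorCTCF and 1.95 in 1xBorCTCF, log2 ratios of 1.00 (0.75 to 1.24) and 0.78 (0.56 to 1.00). The ratio of Rbm33 was lower than that of Shh by 0.51 (0.21 to 0.81) in 2xBorCTCF, and in 1xBorCTCF the difference of -0.22 had an interval from -0.48 to 0.039. From Cnpy1, left of Rbm33, the ratios were 0.22 (-0.043 to 0.49) and 0.42 (0.20 to 0.64), and their differences from Rbm33 were within counting error. From Rnf32 they were 0.078 and 0.14, lower than from Rbm33 by 0.41 (0.15 to 0.67) and 0.42 (0.20 to 0.64). Farther left, Insig1 had ratios of 1.05 and 1.48, the second above that of Rbm33 by 0.92 (0.21 to 1.62), and En2 1.04 and 0.86. Htr5a had 0.023 and -0.0028, the second below that of Rbm33 by 0.56 (0.16 to 0.97).

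The second site, intraTAD3, was read as 28,865,001 to 28,890,000. Contact of Rbm33 with it was 0.765 (wild type), 0.784 (intraTAD2), 0.845 (intraTAD3), 0.850 (i4CTCF), 0.796 (2xBorCTCF) and 0.777 (1xBorCTCF). All 5 ratios to wild type were within counting error, the intraTAD3 ratio being 0.14 (-0.020 to 0.30). The bin of this site (28,875,001) held 415% of the contacts of the mean bin in intraTAD3 and 74.2% in wild type.

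**Figure D4:**
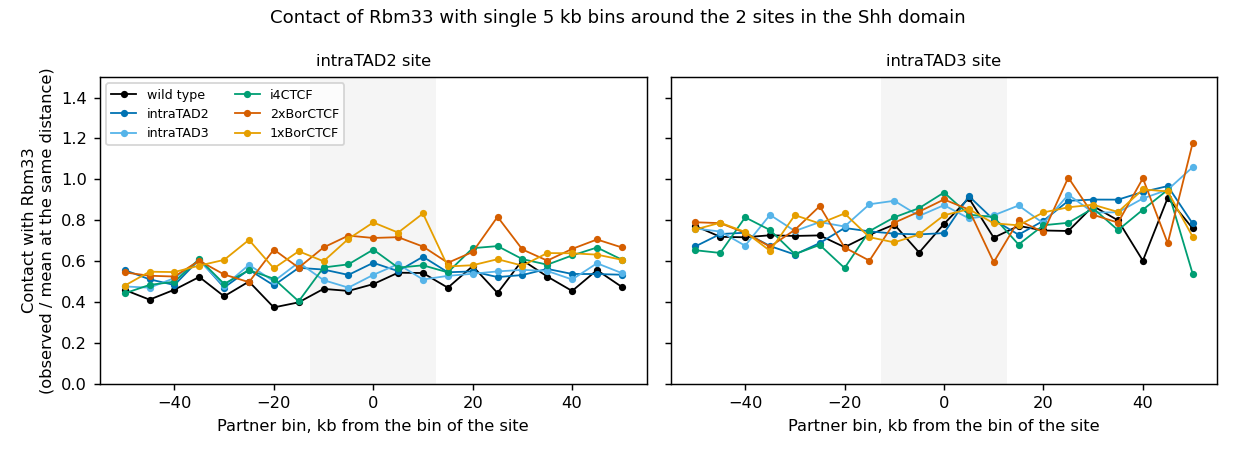
Distance-normalised contact of Rbm33 with single 5 kb bins (y axis) by distance from the bin of each site in kb (x axis), 1 line per map. At the intraTAD2 site the 2 BorCTCF maps are at 0.713 and 0.789 and wild type at 0.488; at the intraTAD3 site the 6 maps lie between 0.737 and 0.935.

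By the rule of a 1.3-fold difference in 2 or more mutant maps, 1 of 17 windows on the left and 1 of 37 on the right qualified. No share over all viewpoints is given for this rule, so these counts are not read as particular to Rbm33. The window at 28,680,001, which overlaps the intraTAD2 site, was at 0.510 in wild type, 0.680 in 2xBorCTCF and 0.669 in 1xBorCTCF. The window at 27,530,001, inside Dpp6 at the left end of the region, was at 0.422 in wild type and 0.548, 0.550, 0.516, 0.579 and 0.560 in the mutant maps. There all 5 mutant maps were above wild type, 3 of them by 1.3-fold or more. The ratios at a window share its wild-type value, which rests on 262 contacts here, so they are not independent of each other. At a fold of 1.5, or in windows of 100 kb, none qualified in any comparison.

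Along Rbm33 the contact with the Shh domain increased towards the border. The left segment of the gene was at 0.920 in wild type and the right segment at 1.15. In the mutant maps the left segment was at 0.984 (intraTAD2), 1.03 (intraTAD3), 1.00 (i4CTCF), 0.959 (2xBorCTCF) and 0.947 (1xBorCTCF). The right segment was at 1.25, 1.27, 1.23, 1.19 and 1.15 in the same order. The right segment was higher in all 6 maps, by 0.29 (1xBorCTCF) to 0.34 (intraTAD2) on the log2 scale, with all intervals off 0. Beyond the domain the segments differed by -0.016 (wild type) to 0.044 (intraTAD3), all within counting error, and on the left side by -0.052 (intraTAD2) to 0.056 (2xBorCTCF), outside counting error in wild type, intraTAD2 and 1xBorCTCF.

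Contact with Lmbr1 increased along the gene as well, though not evenly. In wild type the first bin of Rbm33 had a contact of 2.45 with Lmbr1 and the lowest bin (28,370,001) 1.91, and the highest was 3.56 at 28,405,001, the third bin from the right end. The highest bin was the same in i4CTCF (4.07), 2xBorCTCF (3.52) and 1xBorCTCF (3.24), 1 bin further right in intraTAD2 (4.20) and the last bin in intraTAD3 (4.25). Spearman correlation of the position in the gene with the contact with Lmbr1 was 0.75 (wild type) to 0.94 (intraTAD2) over 21 neighbouring bins, which share libraries and partners. With beyond-domain contact it was 0.0052 (2xBorCTCF) to 0.41 (intraTAD3), and with left-side contact -0.49 (intraTAD2) to 0.12 (2xBorCTCF).

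Between the segments, Lmbr1 differed by 0.28 (wild type) to 0.44 (intraTAD2) on the log2 scale and Rnf32 by 0.15 to 0.29. Shh went the other way, with less contact for the segment of Rbm33 nearer to it, by -0.53 (-0.71 to -0.35) in wild type and by -0.26 (i4CTCF) to -0.12 (intraTAD3) in the mutant maps. Of these Shh differences only that of intraTAD3 was within counting error. On the left, Insig1 had less contact with the right segment of Rbm33 than with the left segment, by -0.29 (wild type) to -0.17 (intraTAD3), within counting error in 2xBorCTCF alone.

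**Figure D5:**
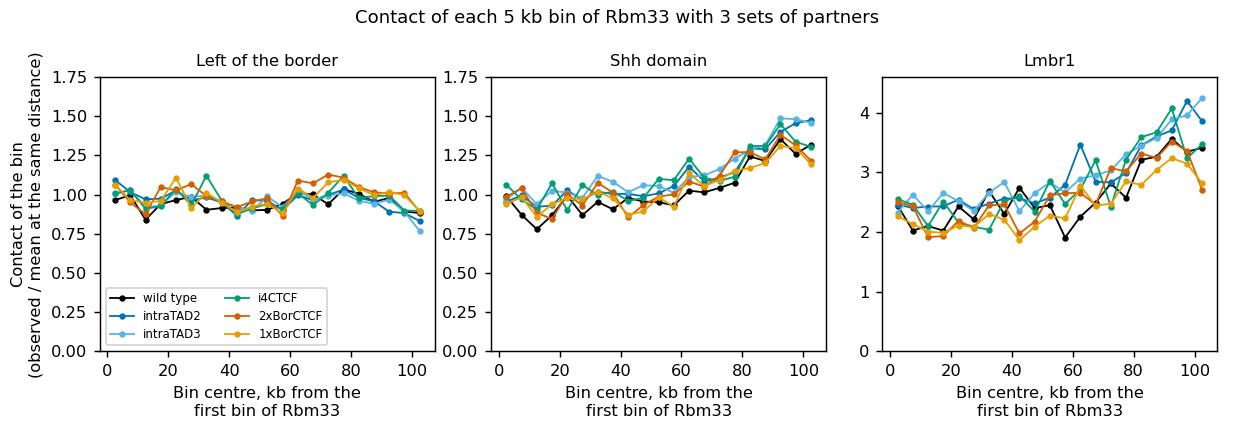
Distance-normalised contact of each 5 kb bin of Rbm33 (y axis) with all partners left of the border, with the Shh domain and with Lmbr1, by the position of the bin in kb from the first bin (x axis), 1 line per map. Contact with the left side falls from 1.03 in the first 3 bins to 0.868 in the last 3 in intraTAD2. In intraTAD3 it falls from 0.983 to 0.876, and in the other maps it is 0.918 to 0.992 at these ends. Contact with Lmbr1 increases to a highest bin of 3.24 to 4.25.

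In every map all 21 bins of Rbm33 had a higher mean on the right than on the left over all distances, the interval leaving 0 in 13 (2xBorCTCF) to 21 bins (wild type, intraTAD2 and intraTAD3). The right side reaches farther than the left, and the same count for the other bins of the region is not given. The count is therefore not read as particular to Rbm33. Over distances up to 835 kb the whole gene had a lower mean on the right in all 6 maps (-0.33 to -0.20). Over the full reach, as for Cnpy1 and En2 below, the 5 bins between Rbm33 and the border had a larger difference than Rbm33. This stretch was chosen after its values were seen, and its difference was 0.66 (1xBorCTCF) to 1.14 (intraTAD3) on the log2 scale. Its left partners leave out the bins of Rbm33, which lie next to it, whereas those of Cnpy1 and En2 include them. The difference of the stretch thus rests on another set of left partners and is not a like comparison. Cnpy1, the next listed gene on the left, had 0.017 (2xBorCTCF) to 0.12 (wild type). Rbm33 exceeded Cnpy1 by 0.20 (1xBorCTCF) to 0.34 (intraTAD3), outside counting error in all 6 maps. En2, farther left, was at 0.35 (intraTAD2) to 0.43 (i4CTCF) and differed from Rbm33 outside counting error only in 1xBorCTCF, where Rbm33 was lower by -0.12 (-0.21 to -0.030).

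Of the listed genes taken as viewpoints, the contact profiles most like that of Rbm33 were those of Cnpy1, Paxip1 and En2. Their Spearman correlations over 480 to 489 partner bins at 50 kb or more had medians over the 6 maps of 0.682, 0.571 and 0.517. Shh, the nearest gene across the border, was at 0.452, and the lowest values were those of Rnf32 (-0.463) and Lmbr1 (-0.493). These correlations run across bins of the same libraries and describe the profiles only.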

How the data were processed

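The authors deposited a balanced contact signal per pair of 5 kb bins, with each map balanced on its own. Per the file names, balancing was by the Knight-Ruiz method on reads with a mapping quality of at least 30. The submitters' processing notes list Bowtie2 2.2.6, mm9 and mm10, with no role given. The sources used here name no caller of contacts. The wild-type map is 1 column of values that belongs to no sample.

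A balanced value is a whole count of contacts multiplied by a factor per bin, and 100% of the defined values were recovered as whole within 0.01. Undefined pairs numbered 36 (wild type), 61 (intraTAD3), 9 (2xBorCTCF) and 106 (1xBorCTCF), and none involved Rbm33. Total contacts were 1,646,616 (wild type), 2,942,790 (intraTAD2), 2,849,095 (intraTAD3), 1,256,568 (i4CTCF), 1,121,373 (2xBorCTCF) and 1,975,131 (1xBorCTCF). In all maps, 10 of 558 bins were dropped because in at least 1 map they had fewer than 25% of the median partner number. Intervals at 95% are weighted Poisson intervals of the recovered contacts or, for shares, Clopper-Pearson intervals shifted onto the balanced share. They cover counting error only. Recovery and intervals were tested on data simulated with counting error alone from the recovered contacts. For the intervals the bin factors and the distance curve were kept fixed. That check cannot show error from the balancing, from the distance curve or between libraries.

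Named partners were 12 protein-coding genes (gene body and 1 bin either side), 2 sites (1 bin and 2 either side), the 3 highest and 3 lowest 50 kb windows on each side, and windows past 1.3-fold in 2 or more mutant maps. The background was the same count over 26 viewpoints of 21 bins that tile the region. Rbm33, the lists and the rules were chosen with earlier results of these data known. The alternatives were other distance curves, distances, bins, weights, viewpoints and unbalanced contacts. Python 3.11.15, numpy 2.4.6, scipy 1.17.1 and pandas 2.3.3 were used.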

Additional observations from a re-analysis of the deposited data

How the results depend on the processing

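The lower contact right of the border at 20 to 300 kb kept its direction in all 6 maps under the 10 alternatives run for the bands, as did the higher right side beyond 600 kb. The means over all distances and many ratios between maps did not, mostly under other distance curves and another reach. The values are log2 ratios, and the cause was not tested, except that a reach of 835 kb drops the more distant partners by construction. That reach gives no value beyond the domain. No paired analysis was possible because each genotype had 1 library. Contact with named partners and by band was run under 6 alternatives added after the data were seen.

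With a median distance curve, the right-side contact was 0.18 (intraTAD2), 0.19 (intraTAD3), -0.16 (i4CTCF), -0.25 (2xBorCTCF) against wild type and -0.33 (i4CTCF), -0.42 (2xBorCTCF), -0.23 (1xBorCTCF) against intraTAD2 and -0.19 (2xBorCTCF) against 1xBorCTCF and the contact with the Shh domain was -0.083 (2xBorCTCF) against wild type. The left-side contact was -0.079 (2xBorCTCF), -0.037 (1xBorCTCF) against intraTAD2 and the right-minus-left difference was 0.27 (wild type), 0.37 (intraTAD2), 0.38 (intraTAD3), 0.12 (i4CTCF), 0.024 (2xBorCTCF), 0.18 (1xBorCTCF). The contact with Paxip1 was -0.049 (i4CTCF), -0.038 (1xBorCTCF) against intraTAD2 and the contact with Lmbr1 was -0.046 (i4CTCF) against wild type and -0.12 (2xBorCTCF) against 1xBorCTCF. The contact at 300 to 600 kb right was -0.036 (2xBorCTCF) against intraTAD2 and the contact beyond 600 kb left was -0.013 (2xBorCTCF) against wild type and -0.16 (2xBorCTCF), -0.079 (1xBorCTCF) against intraTAD2. With 1 distance curve common to the maps compared, the right-side contact was -0.093 (intraTAD2), -0.17 (intraTAD3), -0.25 (i4CTCF), -0.20 (2xBorCTCF), -0.10 (1xBorCTCF) against wild type and -0.074 (intraTAD3), -0.16 (i4CTCF), -0.015 (1xBorCTCF) against intraTAD2 and -0.091 (2xBorCTCF) against 1xBorCTCF and the change of that difference was -0.099 (intraTAD3) against wild type and 0.0063 (i4CTCF) against intraTAD2. The contact with the Shh domain was -0.074 (i4CTCF), -0.020 (2xBorCTCF) against wild type and -0.047 (intraTAD3) against intraTAD2 and the left-side contact was -0.016 (2xBorCTCF) against intraTAD2. The contact beyond the domain was 0.029 (1xBorCTCF) against intraTAD2 and the right-minus-left difference was 0.47 (wild type), 0.34 (intraTAD2), 0.37 (intraTAD3), 0.33 (1xBorCTCF). The contact with Paxip1 was -0.066 (i4CTCF) against intraTAD2 and the contact with Rnf32 was -0.0051 (intraTAD3) against wild type. The contact with Lmbr1 was -0.0024 (intraTAD3), -0.12 (i4CTCF) against wild type and the contact at 20 to 100 kb left was -0.015 (2xBorCTCF) against intraTAD2. The contact at 300 to 600 kb right was -0.062 (i4CTCF) against wild type and -0.046 (intraTAD3) against intraTAD2 and the contact beyond 600 kb right was -0.12 (intraTAD2), -0.20 (intraTAD3) against wild type. As a ratio of summed contacts, the right-side contact was 0.0034 (intraTAD2), -0.0031 (2xBorCTCF), -0.0074 (1xBorCTCF) against wild type and 0.0059 (i4CTCF), -0.0065 (2xBorCTCF), -0.011 (1xBorCTCF) against intraTAD2 and the contact with the Shh domain was 0.057 (2xBorCTCF), 0.023 (1xBorCTCF) against intraTAD2. The right-minus-left difference was 0.049 (wild type), 0.032 (intraTAD2), 0.083 (intraTAD3), 0.031 (i4CTCF), -0.025 (2xBorCTCF), 0.0030 (1xBorCTCF). Over distances up to 835 kb, the right-side contact was 0.080 (intraTAD2), 0.14 (intraTAD3), 0.12 (i4CTCF), 0.082 (2xBorCTCF), 0.078 (1xBorCTCF) against wild type and 0.059 (intraTAD3), 0.038 (i4CTCF), 0.0019 (2xBorCTCF), -0.0019 (1xBorCTCF) against intraTAD2 and the change of that difference was 0.081 (i4CTCF), 0.0099 (2xBorCTCF), 0.021 (1xBorCTCF) against wild type and 0.020 (i4CTCF) against intraTAD2. The contact with the Shh domain was 0.0019 (2xBorCTCF) against intraTAD2 and the right-minus-left difference was -0.33 (wild type), -0.27 (intraTAD2), -0.20 (intraTAD3), -0.25 (i4CTCF), -0.32 (2xBorCTCF), -0.31 (1xBorCTCF). Without bins under 50% of the median number of partners, the right-minus-left difference was 0.36 (wild type). With unbalanced contacts, the left-side contact was -0.0049 (2xBorCTCF), -0.0095 (1xBorCTCF) against wild type and the right-side contact was -0.027 (i4CTCF) against intraTAD2. The right-minus-left difference was 0.43 (wild type), 0.49 (intraTAD2), 0.57 (intraTAD3), 0.41 (i4CTCF), 0.38 (2xBorCTCF), 0.39 (1xBorCTCF) and the difference at 300 to 600 kb was 0.030 (intraTAD3), 0.051 (2xBorCTCF), 0.0015 (1xBorCTCF). The contact with En2 was -0.0089 (2xBorCTCF) against wild type and -0.0071 (2xBorCTCF) against 1xBorCTCF and the contact with Shh was -0.0023 (2xBorCTCF) against intraTAD2. The contact at 20 to 100 kb left was -0.019 (2xBorCTCF) against wild type and -0.012 (2xBorCTCF) against 1xBorCTCF and the contact at 20 to 100 kb right was -0.10 (2xBorCTCF) against 1xBorCTCF. The contact at 100 to 300 kb left was -0.016 (intraTAD2), -0.0097 (2xBorCTCF) against wild type and 0.024 (1xBorCTCF) against intraTAD2 and -0.018 (2xBorCTCF) against 1xBorCTCF and the contact at 300 to 600 kb left was -0.037 (1xBorCTCF) against wild type and -0.032 (1xBorCTCF) against intraTAD2. The contact at 300 to 600 kb right was -0.011 (intraTAD2) against wild type. Without 100 kb at either end, the right-minus-left difference was 0.31 (wild type), 0.35 (intraTAD2), 0.37 (intraTAD3), 0.26 (i4CTCF), 0.18 (2xBorCTCF), 0.19 (1xBorCTCF). Without a 35 kb stretch inside Lmbr1, added after the data were seen, the right-minus-left difference was 0.38 (intraTAD2), 0.41 (intraTAD3). At a fold of 1.5 and in windows of 100 kb, 0 partner windows of Rbm33 passed in each comparison.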
